A study of Mus musculus with 10 samples.

Results

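The 34 genes described here are markers of macrophages and other leukocytes, measured in cultures of mouse embryonic fibroblasts. They were named from a list of leukocyte markers, and all 34 were found among the 22180 genes that the array annotation names by 1 symbol. The list was chosen with earlier results of these data known, so counts set beside shares of all genes are descriptions. Where a gene had several probe sets, the one with the greatest mean stood for it. Only Alox5ap had more than 1 probe set to choose from.

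The cells were primary fibroblasts (MEFs), connective tissue cells isolated with trypsin from the dorsal skin of E13.5 mouse embryos, after the head and organs had been taken away. Total RNA of 5 cultures labelled Zbtb4 knock-out and 5 labelled wild type was hybridised to 1-colour Affymetrix arrays, 1 array per sample, to find transcripts that depend on the methyl-CpG binding protein Zbtb4. The labels name no strain, allele, deleted exon, passage or treatment beside the culture itself, and no step that removed or sorted blood cells. Whether each of the 5 samples of a genotype had its own embryo is not said, so a p-value here covers the spread among the samples and nothing wider. The deposited values are log2 levels with array medians from 3.89 to 3.93, and the number of arrays limits their precision. Zbtb4 itself was 5.44, 5.76, 5.04, 5.62 and 5.39 on knock-out arrays 1 to 5 and 6.06, 6.03, 5.94, 6.23 and 6.11 on wild-type arrays 1 to 5, a difference of -0.62 with a standard error of 0.12 (limma adjusted p = 0.628). All 5 knock-out arrays lay below all 5 wild-type arrays (exact two-sided permutation p = 0.00794, the smallest that 5 against 5 arrays can give), the lowest value lay on knock-out array 3, and the adjusted p did not pass 0.05. Whether the probe set lies in the deleted part of the gene is not known.

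Macrophages colonise embryonic tissues early, from the yolk sac and then the fetal liver, and dissociated embryonic tissue can carry some of them into culture. They depend on the receptor Csf1r, whose ligand Csf1 fibroblasts secrete, and on the transcription factor PU.1, encoded by Spi1. Much of their surface signalling runs through the adaptors Tyrobp (also called DAP12) and Fcer1g, which carry activation motifs for receptors that recognise antibodies, lipids and sugars. In an RNA extract of a whole culture, more leukocytes and more RNA of these genes per leukocyte cannot be told apart.

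Most of the leukocyte genes moved together from culture to culture, and the 2 ends of the range were both knock-out cultures. A leukocyte index was computed for each array as the mean over the 34 genes of the log2 value minus that gene's mean over 10 arrays. The index was 0.093, -0.18, 0.66, 0.16 and -0.39 on knock-out arrays 1 to 5 and -0.053, -0.0097, -0.28, 0.16 and -0.16 on wild-type arrays 1 to 5. The highest index was thus that of knock-out array 3 and the lowest that of knock-out array 5, and every wild-type array lay between them. The gap between knock-out arrays 3 and 5 was 1.05 on the log2 scale, a 2.07-fold difference as a geometric mean over the genes, against a span of 0.45 or 1.36-fold among the wild-type arrays.

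All 34 genes had a higher value on knock-out array 3 than on knock-out array 5, where 52.6% of all genes did. The highest of the 10 values lay on knock-out array 3 for 26 of the 34, against 11.4% of all genes, and the lowest on knock-out array 5 for 12, against 11.5%. For 27 genes knock-out array 3 was above every wild-type array (18.9% of all genes), and for 17 genes knock-out array 5 was below every wild-type array (20.4%). Spread over the 10 arrays was wide for most: the median SD was 0.33 over the 34 and 0.16 over all genes, and 29 of 34 had an SD of at least 0.2, against 31.4% of all genes. Among knock-out arrays the median SD of the 34 genes was 0.40 and among wild-type arrays 0.25, while over all genes these were 0.16 and 0.15. The larger SD lay among the knock-out arrays for 27 of 34 genes, against 55.7% of all genes. Y-linked transcripts had mean levels of 5.89 to 6.42 on knock-out and wild-type arrays 1 and 3 and of 2.49 to 2.78 on the other 6. Xist, expressed from the inactive X chromosome of females, was at 2.99 to 4.497 on the first 4 and at 10.11 to 10.32 on the rest, so the 5 arrays of a genotype were not all from 1 and the same embryo. Arrays with Y-linked RNA lay at the top of the index, on knock-out array 3 (0.66) and near its bottom, on wild-type array 3 (-0.28).

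**Figure D1:**
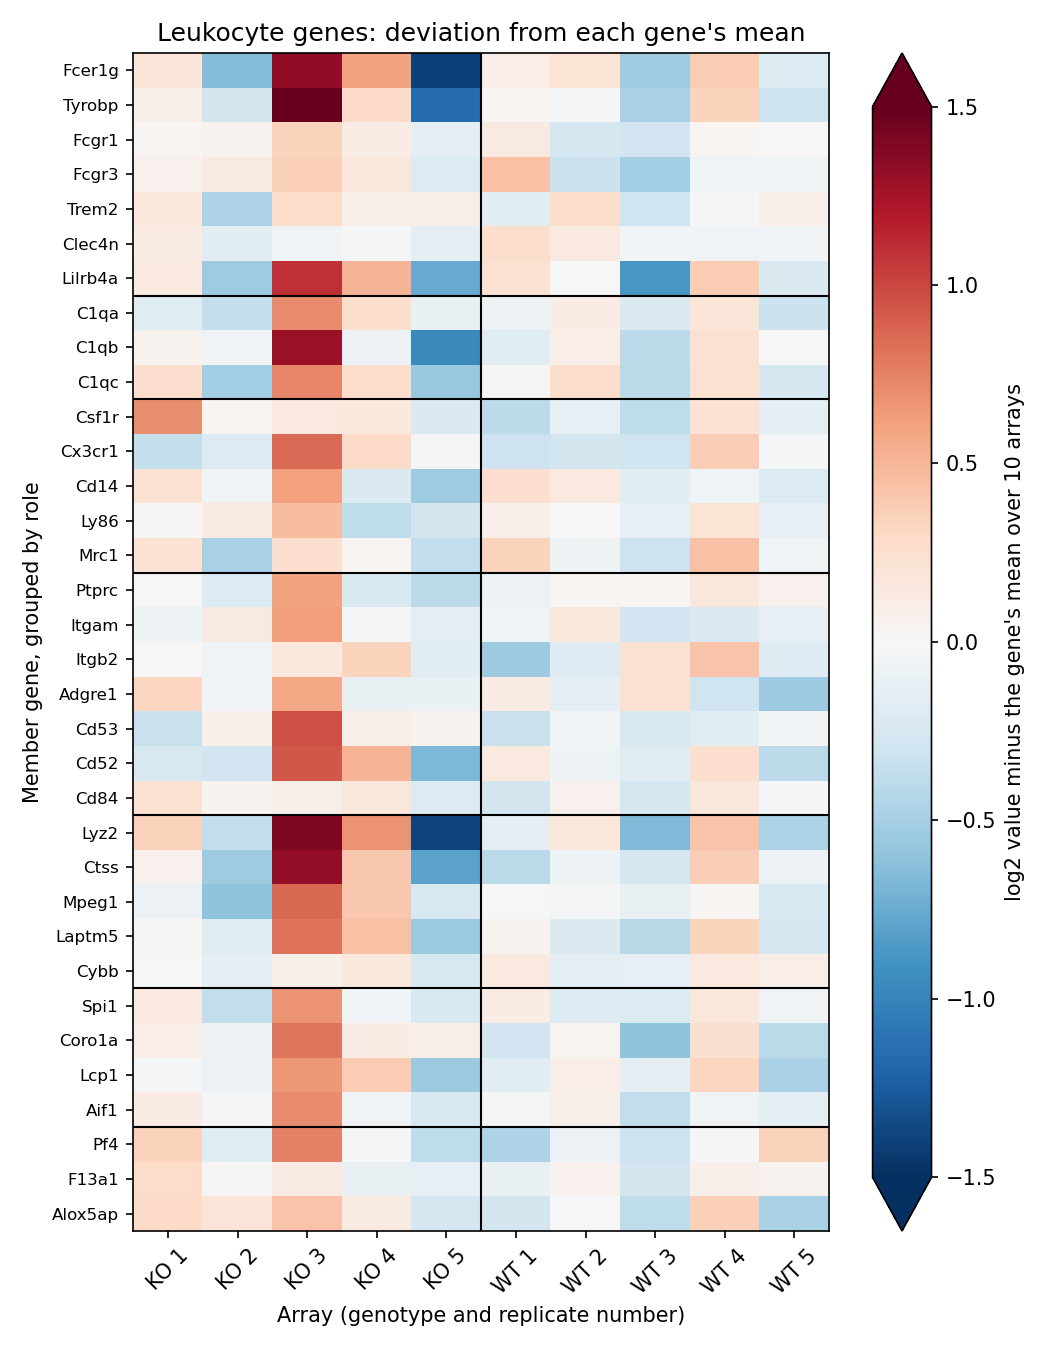
Each cell shows a gene's log2 value on 1 array minus that gene's mean over 10 arrays, with red above and blue below the mean; columns are the 5 knock-out (KO) and 5 wild-type (WT) arrays, and horizontal lines separate the roles. The column of knock-out array 3 holds the highest value for 26 of 34 genes and that of knock-out array 5 the lowest for 12.

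The signalling adaptors Fcer1g and Tyrobp spanned the widest ranges of single genes after Lyz2, while several receptors of their group varied little. Fcer1g, the common gamma chain of Fc receptors, was 6.23, 5.39, 7.38, 6.65 and 4.65 on knock-out arrays 1 to 5 and 6.14, 6.25, 5.52, 6.43 and 5.84 on wild-type arrays 1 to 5. Knock-out arrays 3 and 5 lay outside the wild-type range on opposite sides and differed 6.64-fold, and the means were 6.06 ± 1.07 in the knock-out and 6.03 ± 0.36 in the wild type (SD, n = 5 each). Tyrobp, the adaptor DAP12, ran from 4.83 to 7.49 with the same arrays at the ends. Lilrb4a, an inhibitory immunoglobulin-like receptor, ran from 4.15 to 6.12, lowest on wild-type array 3. One probe set that names Lilrb4a together with its neighbour Lilr4b was left out, and RNA of that near-identical copy could bind the probes used, so the value is uncertain. Fcgr3, a low-affinity receptor for IgG, ran from 3.27 to 4.22 with its highest and lowest values both in the wild type, and Fcgr1, the high-affinity receptor, from 3.32 to 3.96. Trem2, a lipid-sensing receptor that signals through Tyrobp, ran from 3.70 to 4.44, and the C-type lectin gene Clec4n from 2.34 to 2.79. Clec4n did not follow the others: its highest value lay on wild-type array 1, and its Pearson r with the index of the other 33 genes over the 10 arrays was 0.12, against 0.98 for Tyrobp and 0.94 for Fcer1g.

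The 3 chains of C1q, the recognition subunit of the classical complement pathway, are made mainly by macrophages and are encoded side by side on chromosome 4. C1qb was 5.91, 5.80, 7.15, 5.77 and 4.89 on knock-out arrays 1 to 5 and 5.67, 5.95, 5.46, 6.08 and 5.84 on wild-type arrays 1 to 5. Knock-out array 3 was the highest and knock-out array 5 the lowest, a 4.79-fold difference, while the other 8 arrays lay between 5.46 and 6.08. C1qc ran from 3.80 to 5.09 and C1qa from 4.70 to 5.77, both highest on knock-out array 3. C1qa had its lowest value on knock-out array 2 (4.70), and its 4.95 on knock-out array 5 lay within the wild-type range. Of the other complement genes listed for comparison, which enter the classical pathway after C1q or regulate it, C4b varied most and in another order, from 2.39 to 3.92, lowest on wild-type array 2 and highest on knock-out array 5.

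Lysosomal and phagosomal genes gave the largest single span. Lyz2, the lysozyme of macrophages and neutrophils, was 7.35, 6.64, 8.41, 7.68 and 5.62 on knock-out arrays 1 to 5 and 6.87, 7.17, 6.34, 7.44 and 6.53 on wild-type arrays 1 to 5. The difference between knock-out arrays 3 and 5 was 6.91-fold, against 2.14-fold between the highest and lowest wild-type arrays, and the means were 7.14 ± 1.06 in the knock-out and 6.87 ± 0.45 in the wild type (SD, n = 5 each). Lyz1, a near-identical copy, could share signal with this probe set. Ctss, a protease that trims antigens for presentation, ran from 3.97 to 6.08, a span of 4.32-fold between the same 2 arrays. Laptm5, a lysosomal membrane protein of blood cells, ran from 4.18 to 5.55 and the pore-forming Mpeg1 from 2.94 to 4.41, both highest on knock-out array 3. Cybb, the catalytic subunit of the phagocyte NADPH oxidase, hardly varied, from 2.998 to 3.40, and was highest on knock-out array 4.

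Receptors for growth factors, chemokines and microbial products varied less. Cx3cr1, the fractalkine receptor, was 5.49, 5.64, 6.69, 6.13 and 5.83 on knock-out arrays 1 to 5 and 5.54, 5.57, 5.54, 6.22 and 5.82 on wild-type arrays 1 to 5. Knock-out array 3 was the highest, knock-out array 1 the lowest, and knock-out array 5 lay inside the wild-type range. Csf1r, the receptor that keeps macrophages alive, was 5.18, 4.51, 4.64, 4.65 and 4.27 on knock-out arrays 1 to 5 and 4.10, 4.36, 4.10, 4.70 and 4.35 on wild-type arrays 1 to 5. Its highest value lay on knock-out array 1, and knock-out array 3 lay below wild-type array 4, so Csf1r did not share the peak of most other genes. Cd14, the co-receptor for lipopolysaccharide, ran from 4.30 to 5.45 between knock-out arrays 5 and 3. Ly86, which with the receptor Cd180 senses lipopolysaccharide, ran from 2.90 to 3.75, lowest on knock-out array 4. Mrc1, the mannose receptor of tissue macrophages, ran from 2.61 to 3.53 and was highest on wild-type array 4.

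Surface proteins shared by many leukocytes followed the index unevenly. Cd52, a small glycoprotein of leukocytes, was 3.87, 3.83, 5.04, 4.63 and 3.44 on knock-out arrays 1 to 5 and 4.27, 4.04, 3.93, 4.37 and 3.72 on wild-type arrays 1 to 5, a 3.04-fold difference between knock-out arrays 3 and 5. Ptprc, the phosphatase CD45 found on nearly all nucleated blood cells, was 2.75, 2.55, 3.36, 2.53 and 2.36 on knock-out arrays 1 to 5 and 2.66, 2.79, 2.79, 2.92 and 2.82 on wild-type arrays 1 to 5. The wild-type values of Ptprc lay within 2.66 to 2.92, with knock-out array 3 above and knock-out arrays 2, 4 and 5 below that range. Adgre1, an adhesion receptor that marks macrophages, was 3.88, 3.51, 4.14, 3.45 and 3.46 on knock-out arrays 1 to 5 and 3.68, 3.42, 3.79, 3.26 and 3.02 on wild-type arrays 1 to 5. Its lowest value lay on wild-type array 5, and the genotypes overlapped. The tetraspanin gene Cd53 was highest on knock-out array 3 at 4.95 and between 3.65 and 4.06 elsewhere. Itgam, the alpha chain of the complement receptor Mac-1, ran from 3.09 to 4.01, and its beta chain gene Itgb2 from 3.12 to 4.09. Itgb2 had both its lowest and its highest value in the wild type, on arrays 1 and 4. Cd84, a receptor of the SLAM family, ran from 2.68 to 3.19.

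The transcription factor gene Spi1 and genes of the leukocyte actin cytoskeleton peaked on the same array. Spi1 was 4.95, 4.44, 5.48, 4.76 and 4.58 on knock-out arrays 1 to 5 and 4.91, 4.61, 4.60, 4.98 and 4.75 on wild-type arrays 1 to 5, with knock-out array 3 above and knock-out arrays 2 and 5 below every wild-type array. Coro1a, which encodes the actin-binding coronin of blood cells, was 4.96, 4.79, 5.67, 4.98 and 4.95 on knock-out arrays 1 to 5 and 4.58, 4.90, 4.26, 5.11 and 4.46 on wild-type arrays 1 to 5. Knock-out array 3 was alone at the top, the other knock-out arrays lay close together, and wild-type array 3 was the lowest. The actin bundling gene Lcp1 ran from 4.28 to 5.48 between knock-out arrays 5 and 3, and the macrophage calcium-binding gene Aif1 from 3.16 to 4.23.

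Among secreted and lipid mediators, the chemokine gene Pf4, made by platelets and by embryonic macrophages, was 4.40, 3.88, 4.82, 4.05 and 3.68 on knock-out arrays 1 to 5 and 3.60, 3.97, 3.75, 4.05 and 4.41 on wild-type arrays 1 to 5. Knock-out array 3 was again the highest, followed by wild-type array 5 and knock-out array 1. Alox5ap, which helps 5-lipoxygenase to make leukotrienes, ran from 4.71 to 5.62. F13a1, the coagulation factor subunit of tissue macrophages, ran from 2.16 to 2.71 and was highest on knock-out array 1.

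**Figure D2:**
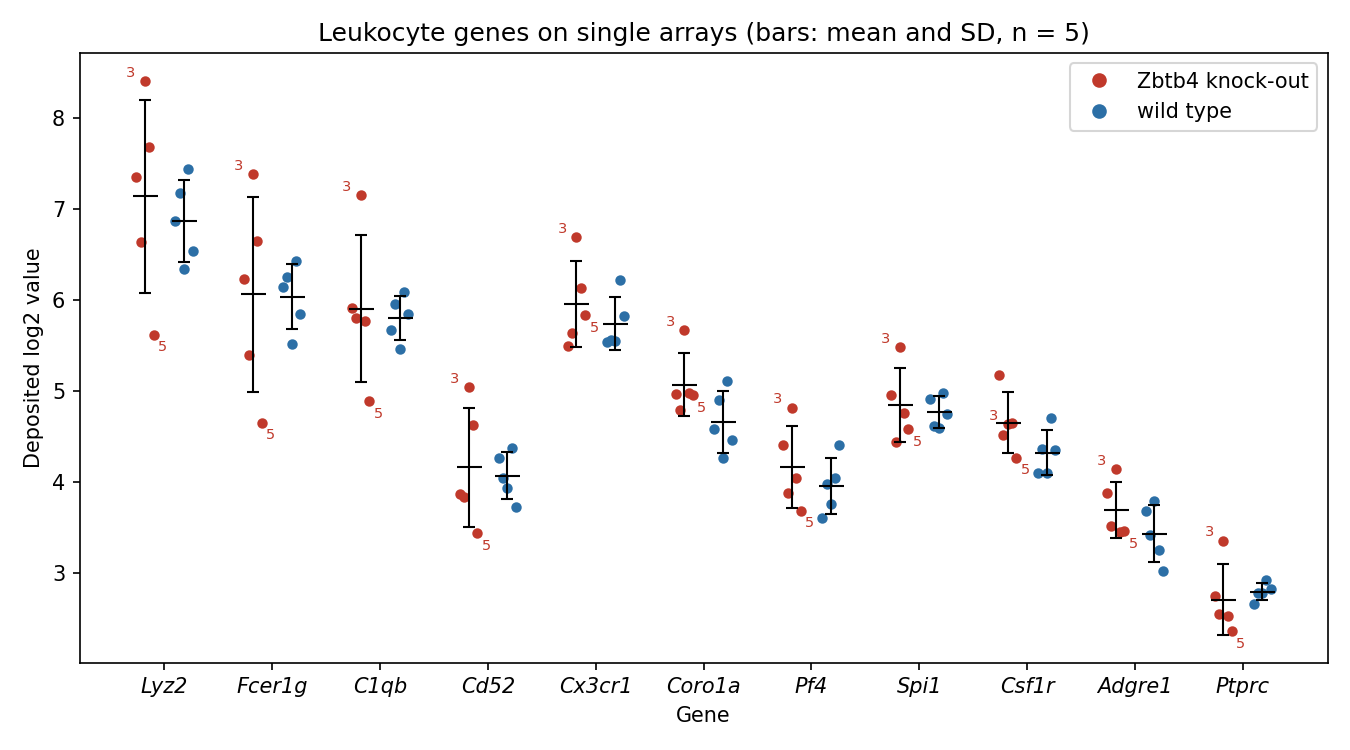
Deposited log2 values (vertical axis) of 11 genes on each of 5 knock-out arrays (red) and 5 wild-type arrays (blue), with the mean and SD of each genotype as black bars; the digits 3 and 5 mark knock-out arrays 3 and 5. In Lyz2, Fcer1g, C1qb and Cd52 the 2 marked arrays lie above and below all wild-type arrays, while in Csf1r and Adgre1 the genotypes overlap with no such span.

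Role by role, every group of genes had its highest index on knock-out array 3, the array that most single genes shared. The index of the 5 lysosomal and phagosomal genes was 0.065, -0.36, 0.89, 0.42 and -0.64 on knock-out arrays 1 to 5 and -0.067, -0.058, -0.32, 0.26 and -0.19 on wild-type arrays 1 to 5. The values of knock-out arrays 3 and 5, in that order, were 0.91 and -0.55 for the 3 C1q genes and 0.69 and -0.53 for the 7 Fc receptor and adaptor genes. They were 0.71 and -0.23 for the 4 transcription factor and actin genes, 0.56 and -0.23 for the 7 surface and adhesion genes and 0.47 and -0.28 for the 5 growth factor, chemokine and pattern receptors. For the 3 secreted and lipid mediator genes they were 0.44 and -0.26. The lowest index lay on knock-out array 5 for every role except the actin and the secreted groups, which were lowest on wild-type array 3.

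The genes also followed one another on the arrays between those extremes. Against the index of the other 33 genes, 31 of 34 had a Pearson r of at least 0.5 over the 10 arrays and 14 of at least 0.8. The sources do not say whether the arrays were normalized together, and these values are descriptions. Without knock-out arrays 3 and 5, which lie farthest from the median index, 22 of 34 kept an r of at least 0.5 over the other 8 arrays, and the median r over the 561 pairs of genes went from 0.57 to 0.31. On those 8 arrays Lyz2 had an r of 0.97, Tyrobp 0.98, Lilrb4a 0.92 and Fcer1g 0.91. Cd14 had an r of 0.17 there. Ptprc, Itgam, Cd53, Adgre1 and Ly86 lost the relation there, with r from -0.14 to 0.066, so for these genes it rests on the 2 arrays left out.

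Because these genes moved together and PU.1 is a known activator of macrophage genes, the start regions of the most variable ones are shown with the core of its recognition sequence. RefSeq sequences (GRCm38.p6) of 300 bases around the gene start were at hand for 23 of the 34 genes; the 5 of these with the largest SD are printed, 5′ to 3′, with GAGGAA and its reverse complement TTCCTC in capitals.
Lyz2 (chr10:117282223-117282522, minus strand): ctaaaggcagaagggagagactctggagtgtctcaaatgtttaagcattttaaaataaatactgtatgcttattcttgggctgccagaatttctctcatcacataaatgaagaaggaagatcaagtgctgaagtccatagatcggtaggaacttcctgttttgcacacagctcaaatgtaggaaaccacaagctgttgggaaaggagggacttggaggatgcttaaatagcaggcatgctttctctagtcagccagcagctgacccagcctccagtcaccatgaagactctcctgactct
Fcer1g (chr1:171234300-171234599, minus strand): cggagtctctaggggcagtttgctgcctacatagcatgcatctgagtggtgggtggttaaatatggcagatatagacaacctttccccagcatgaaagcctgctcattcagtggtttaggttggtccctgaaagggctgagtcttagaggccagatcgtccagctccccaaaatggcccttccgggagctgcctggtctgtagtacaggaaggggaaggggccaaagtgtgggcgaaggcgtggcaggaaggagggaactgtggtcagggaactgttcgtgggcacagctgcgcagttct
Ctss (chr3:95526536-95526835, plus strand): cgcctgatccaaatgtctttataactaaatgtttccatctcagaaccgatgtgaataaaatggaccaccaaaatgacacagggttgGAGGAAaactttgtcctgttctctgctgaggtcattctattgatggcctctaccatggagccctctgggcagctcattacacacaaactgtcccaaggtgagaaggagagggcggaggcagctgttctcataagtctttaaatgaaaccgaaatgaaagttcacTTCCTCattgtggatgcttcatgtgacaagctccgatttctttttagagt
C1qb (chr4:136886151-136886450, minus strand): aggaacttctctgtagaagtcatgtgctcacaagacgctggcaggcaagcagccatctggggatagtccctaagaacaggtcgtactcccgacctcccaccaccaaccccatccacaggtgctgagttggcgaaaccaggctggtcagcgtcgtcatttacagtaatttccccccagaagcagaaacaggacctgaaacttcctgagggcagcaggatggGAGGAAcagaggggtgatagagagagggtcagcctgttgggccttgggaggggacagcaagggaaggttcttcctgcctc
C1qc (chr4:136892865-136893164, minus strand): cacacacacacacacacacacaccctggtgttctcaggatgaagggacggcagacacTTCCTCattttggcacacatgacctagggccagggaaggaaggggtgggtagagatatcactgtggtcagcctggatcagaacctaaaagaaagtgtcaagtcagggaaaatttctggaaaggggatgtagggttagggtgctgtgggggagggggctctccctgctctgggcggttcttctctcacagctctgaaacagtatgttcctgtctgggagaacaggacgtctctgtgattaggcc
GAGGAA on either strand was present in the start regions of Ctss, C1qb and C1qc and not in those of Lyz2 and Fcer1g. Over the 23 genes, 16 (69.6%) had it, against 28.3% of 27025 genes with a sequence of the same length, taking the first start listed for each gene. The longer form GAGGAAGT, which contains the shorter one, was present in 4 of 23 (17.4%) and in 3.28% of all genes. These are matches of letters, not sites shown to be bound, and other forms of the recognition sequence were not searched. The start regions of leukocyte genes were not compared with those of other tissue-specific genes.

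No leukocyte gene passed the test between genotypes. In the limma comparison of knock-out with wild type, none of the 34 genes passed an adjusted p of 0.05, and 0% of the 22180 genes did. The members' adjusted p-values ran from 0.83 to 0.995. At an unadjusted p under 0.05 there was 1 member, Coro1a, higher in the knock-out, against 5.98% of all genes, of which 3.25% were higher and 2.73% lower, and the arrays of the genotypes overlapped for all 34, where 0.987% of all genes had groups that did not. In the means, 29 genes were higher and 5 lower in the knock-out, against 50.7% of all genes higher, with a median log2 difference of 0.14 against 0.002 over all genes. The split depended on which knock-out arrays were kept. Without knock-out array 3, 16 were higher and 18 lower, against 50.7% of all genes higher, and the median was -0.017. That setting keeps knock-out array 5, which had the lowest index. Without knock-out array 5 alone, 31 of 34 were higher, with a median of 0.27. Without both knock-out arrays 3 and 5, a setting chosen after the data were seen, 24 of 34 were higher, with a median of 0.10. The index itself was 0.068 ± 0.40 in the knock-out and -0.068 ± 0.17 in the wild type (SD, n = 5 each).

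The differences with the smallest p-values did not pass. Coro1a had means of 5.07 ± 0.34 in the knock-out and 4.66 ± 0.34 in the wild type (SD, n = 5 each), a difference of 0.41 with a standard error of 0.18 (limma adjusted p = 0.83; exact two-sided permutation p = 0.0952), and 0.26 without knock-out array 3. Csf1r had means of 4.65 ± 0.33 in the knock-out and 4.32 ± 0.25 in the wild type (SD, n = 5 each), a difference of 0.33 with a standard error of 0.16 (limma adjusted p = 0.83; exact permutation p = 0.119). The difference was 0.33 when knock-out array 3 was left out, and 0.19 when the knock-out array highest for Csf1r, array 1, was left out. Alox5ap differed by 0.31, Cd53 by 0.33 and Adgre1 by 0.26, and without knock-out array 3 by 0.25, 0.13 and 0.14 (limma adjusted p from 0.839 to 0.842 with all arrays). No exact permutation p among the 34 genes was below 0.0952, where 5 against 5 arrays can reach 0.00794.

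The genes with the widest spread had small differences and wide intervals. Lyz2 differed by 0.27, with a 95% interval from -0.61 to 1.15, and by -0.049 without knock-out array 3. Fcer1g differed by 0.025, with an interval from -0.84 to 0.89, and by -0.31 without that array. Tyrobp differed by 0.18, Ctss by 0.18, Lilrb4a by 0.19, C1qb by 0.10 and Spi1 by 0.072, and the sign of all 5 turned without knock-out array 3. For 33 of the 34 genes, all but Lyz2, the interval lay within a 2-fold difference in either direction. The 5 genes with a lower mean in the knock-out were Clec4n (-0.11), Ly86 (-0.017), Mrc1 (-0.13), Ptprc (-0.087) and Cybb (-0.05).

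**Figure D3:**
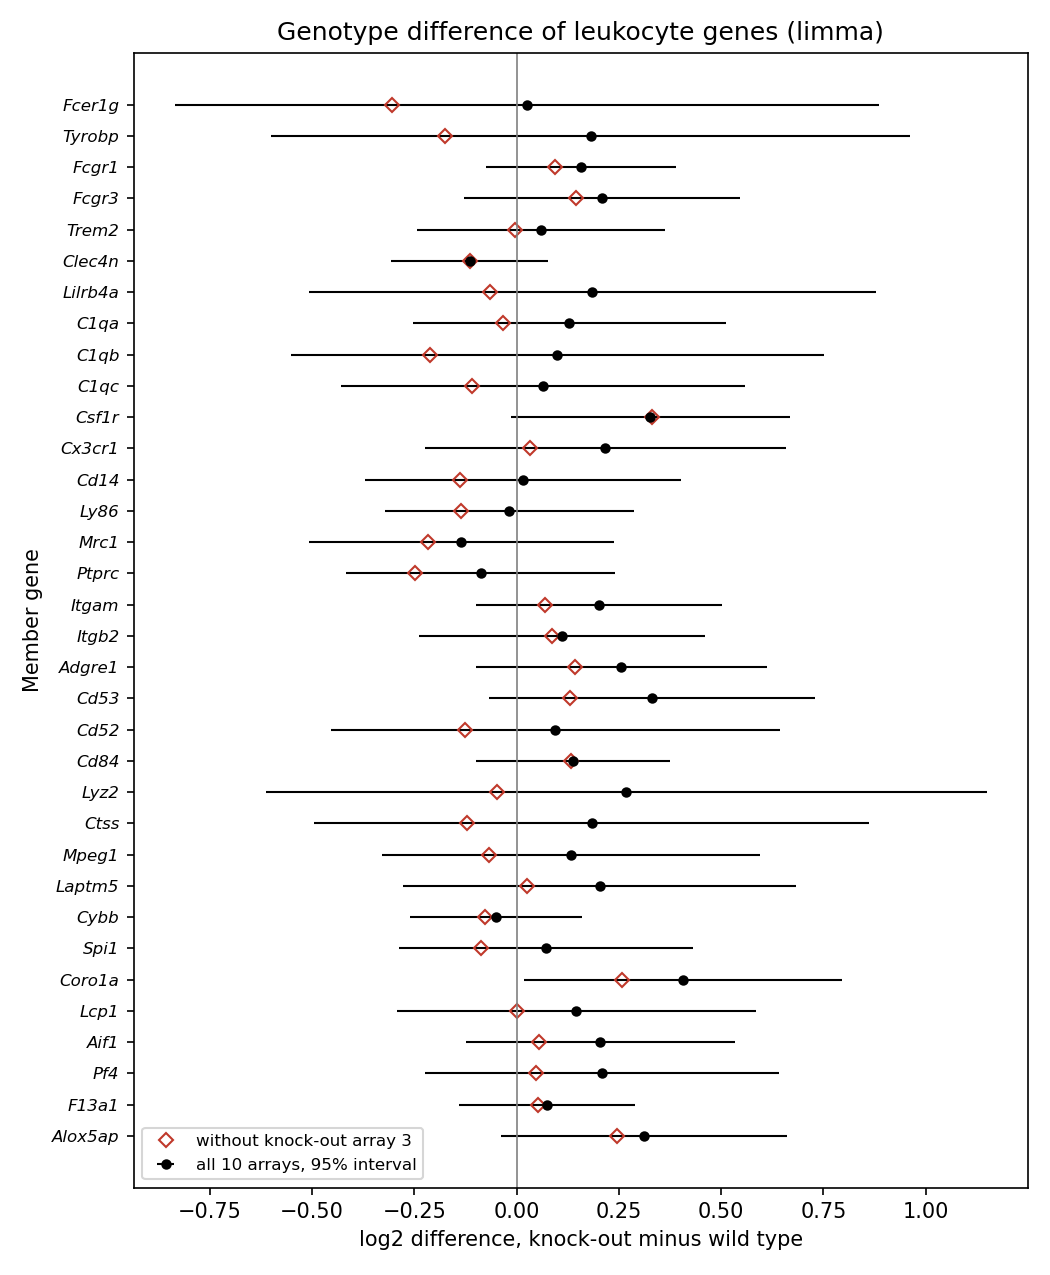
Log2 difference of knock-out minus wild type for each of the 34 genes (horizontal axis), with all 10 arrays and the 95% interval from limma in black and without knock-out array 3 as open red diamonds. Leaving out that array moved most genes to the left and changed the split from 29 higher and 5 lower to 16 higher and 18 lower.

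Other myeloid genes also had their highest index on knock-out array 3, over a smaller range. Of 60 further genes of macrophages and granulocytes, 55 were measured, and their index ran from -0.13 to 0.25, highest on knock-out array 3. Their highest value lay on that array for 20 of 55, against 11.4% of all genes. The mean was higher in the knock-out for 46 of 55, against 50.7% of all genes, with a median difference of 0.061, or 0.028 without knock-out array 3, and 0 passed in either direction. C5ar1, the receptor for the complement fragment C5a, was at 5.01 on knock-out array 3 and from 3.12 to 4.22 on the others. Lst1 ran from 3.25 to 4.91 and the lysosomal macrophage marker Cd68 from 4.80 to 6.22, both highest on knock-out array 3. Of 8 osteoclast genes, whose index ran from -0.13 to 0.27, the gelatinase gene Mmp9 had the widest spread, from 4.76 to 6.92, and 4 were highest on knock-out array 3. The protease gene Ctsk, also made by fibroblasts, ran from 6.31 to 6.98 and the fusion gene Ocstamp from 3.90 to 4.47.

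Lists for particular macrophage states differed: the inflammatory activation index was highest on knock-out array 3, and the resident, microglia and dendritic indices were not. The index of 12 genes of resident fetal macrophages was lowest on knock-out array 3, at -0.17. The transcription factor gene Maf was at 5.26 there against 5.36 to 7.05 on the other arrays, and Cbr2 at 5.42 against 5.98 to 7.26. Maf and Cbr2 made up most of the -0.17, so that value does not show the other genes of the list lower on knock-out array 3. Both lay above the list's mean level, 4.32 to 4.61 on knock-out arrays, and had r of -0.46 and -0.83 with the leukocyte index. Which cells of the cultures made their RNA was not tested. Igf1, on the same list, ran from 4.97 to 5.99; fibroblasts make it too. Of 7 microglia genes, with an index from -0.16 to 0.18, Fcrls was highest on knock-out array 3 (4.14), while Sall1 and P2ry12 were highest on knock-out array 4 (3.81 and 3.95). The 16 genes of inflammatory activation had an index from -0.083 to 0.18, highest on knock-out array 3. On that array 5 of the 16 had their highest value, against 11.4% of all genes. The monocyte chemokine gene Ccl2 was at 9.46 there but at 9.44 on wild-type array 4, and Tnf was at 4.55 and at 4.57 on wild-type array 2. The index of 9 dendritic and antigen presentation genes ran from -0.18 to 0.17, highest on knock-out array 2.

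As lists, markers of other blood cells stayed within narrower limits. The index of 14 neutrophil genes ran from -0.051 to 0.048, of 9 mast cell genes from -0.057 to 0.061, of 9 B cell genes from -0.12 to 0.062 and of 13 T and NK cell genes from -0.10 to 0.10. None of the neutrophil or mast cell genes had its highest value on knock-out array 3, where 11.4% of all genes had theirs. For 8 erythroid genes the index ran from -0.13 to 0.091 and for 7 platelet and megakaryocyte genes from -0.11 to 0.14. The erythroid index was highest on knock-out array 3. On the platelet list Itgb3, an integrin beta chain made by many cells, ran from 6.12 to 7.26 between knock-out arrays 5 and 3 and had an r of 0.92 with the leukocyte index. The mean level of the neutrophil list was 2.94 to 2.99 on knock-out and 2.91 to 3.01 on wild-type arrays, and that of the T and NK list 3.13 to 3.33 on knock-out and 3.14 to 3.28 on wild-type arrays. Nothing on background came with the values, so which of these markers were above it is not known.

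Genes of the signalling routes that the 34 genes belong to were also set beside them. The index of 15 genes downstream of Csf1r, Fc receptors and Tyrobp ran from -0.082 to 0.094 and was highest on knock-out array 3. On that array 4 of the 15 peaked, against 11.4% of all genes. The kinase gene Syk, which couples Tyrobp and Fcer1g to the cell, ran from 3.99 to 4.77 and was highest on wild-type array 5. The index of 7 genes for Csf1, Il34 and related factors ran from -0.15 to 0.18, and Csf1 was 7.99, 8.43, 8.32, 8.38 and 8.11 on knock-out arrays 1 to 5 and 7.98, 7.89, 8.48, 8.46 and 8.76 on wild-type arrays 1 to 5, with no peak on knock-out array 3. Csf2rb, the shared beta chain of receptors for GM-CSF and related factors, was 3.86, 4.88, 4.75, 4.27 and 3.75 on knock-out arrays 1 to 5 and 3.87, 3.89, 3.48, 3.41 and 3.70 on wild-type arrays 1 to 5, a difference of 0.63 between genotypes with overlapping arrays (limma adjusted p = 0.821). Of 6 NADPH oxidase genes, Cybb included, with an index from -0.17 to 0.19, Rac2 ran from 4.33 to 5.75 and Ncf4 from 3.29 to 4.08, highest on wild-type arrays 4 and 2. The 9 classical complement genes, the 3 C1q genes included, had an index from -0.12 to 0.18, highest on knock-out array 3. The 3 C1q genes alone stood at 0.91 there, so this peak includes the members' own and does not show one for the other complement genes. The index of 7 leukocyte integrin genes, Itgam and Itgb2 included, ran from -0.14 to 0.31 and was also highest on knock-out array 3. Of the 7, only 1 had its highest value on that array, Itgam, itself among the 34 genes. Itga4 was at 6.86 on knock-out array 3, compared with 7.03 on knock-out array 4. No member of these lists passed.

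Markers of other cells in embryonic skin gave these values beside the leukocyte index. Fibroblast genes, 17 measured, were at mean levels of 9.21 to 9.39 on knock-out and 9.18 to 9.50 on wild-type arrays. Their index ran from -0.16 on wild-type array 5, where the leukocyte index was also -0.16, to 0.16, and was -0.13 on knock-out array 3. Of their 3 most variable members, Mfap5 was at 6.67 on knock-out array 3, and Pdgfra and Lum were lowest there. Pdgfra was at 6.37 there, at 6.44 on wild-type array 5 and at up to 8.12 elsewhere. Lum was at 4.85 there, at 4.98 on wild-type array 5 and at up to 6.71 elsewhere. Pdgfra and Lum had SDs of 0.62 and 0.68 over the 10 arrays, against a median of 0.15 for the list. They made up most of the -0.13 on knock-out array 3, so that value does not show the other fibroblast genes lower there. The endothelial index (18 genes) was highest on knock-out array 3 at 0.11 and lowest on wild-type array 3 at -0.11, with mean levels of 4.06 to 4.23 on knock-out and 4.02 to 4.17 on wild-type arrays. The index ran from -0.22 to 0.23 for 9 keratinocyte genes, from -0.16 to 0.18 for 11 skeletal muscle genes and from -0.14 to 0.096 for 8 melanocyte and Schwann cell genes. The part of these cells in the leukocyte values was not tested.

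**Figure D4:**
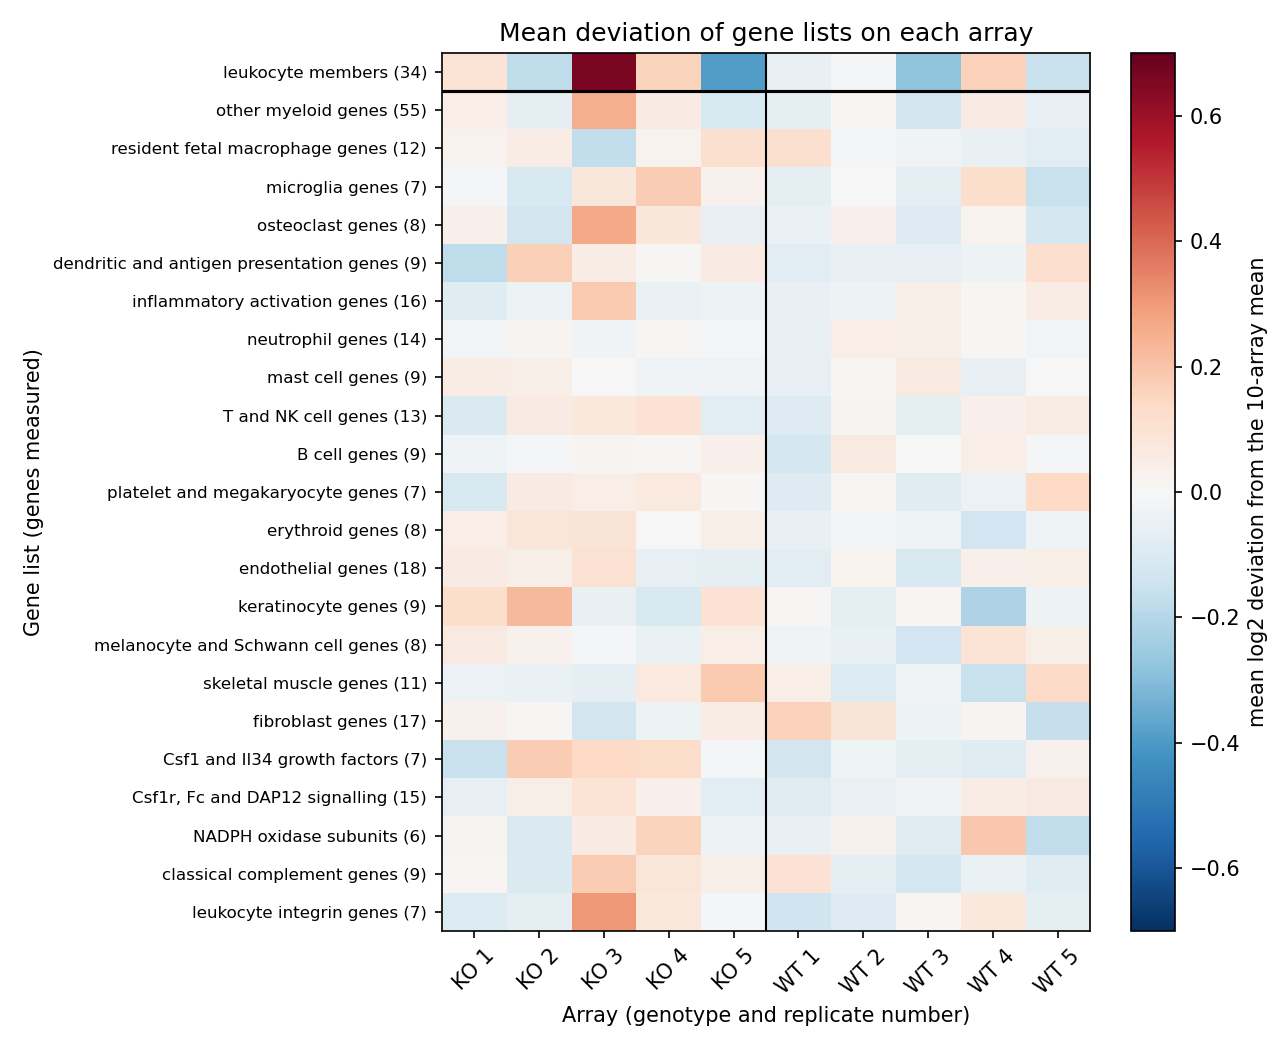
Mean log2 deviation of each gene list on each array, red above and blue below the list's 10-array mean, with the number of genes measured in brackets; the leukocyte genes are the top row. The leukocyte row runs from -0.39 to 0.66, and rows including other myeloid and osteoclast genes are also highest on knock-out array 3. The leukocyte integrin row, also highest there, includes Itgam and Itgb2 of the top row. The neutrophil and mast cell rows hardly vary.

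Genes outside these markers were ranked by their Pearson r with the index over the 10 arrays. Among 5069 genes with a proper symbol and an SD of at least 0.2, 50 had an r of at least 0.8 and 75 an r of at most -0.8. The 20 nearest had r from 0.86 to 0.95, and 18 of them had an r of at least 0.5 without knock-out arrays 3 and 5. The arrays left had also served to pick these genes, so this is a description. Map4k1, a kinase of blood cells, came first, from 3.76 to 4.48. The monocyte chemokine gene Ccl12 had the largest range of the 20, with 4.38, 3.42, 5.84, 3.59 and 2.83 on knock-out arrays 1 to 5 and 3.80, 3.86, 3.21, 3.80 and 3.39 on wild-type arrays 1 to 5. Other leukocyte genes among the 20 were Ms4a7, C3ar1, Slamf9, Clec4d and the chemokine gene Ccl5, and 3 of these were on the list of other myeloid genes. Itgb3 and Mmp9, given above, were also among the 20. Others are not known as leukocyte genes, such as the mesodermal homeobox gene Meox1, from 5.68 to 7.60, the neuronal stathmin gene Stmn4, from 6.23 to 8.78, and the matrix gene Cilp2, from 4.46 to 5.28. The remaining 8 were Pim1, Spata18, Eme1, Kcng1, Egr2, Ch25h, Gbp10 and Macc1, and none of the 20 had a genotype difference that passed.

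The 5 genes that ran most strongly against the index include secreted products of fibroblasts. Fgf7, the keratinocyte growth factor, was 8.11, 8.49, 7.59, 8.12 and 8.47 on knock-out arrays 1 to 5 and 8.26, 8.11, 8.39, 8.12 and 8.35 on wild-type arrays 1 to 5. Knock-out array 3 was the lowest and knock-out arrays 2 and 5 the highest, and r was -0.96, or -0.88 without knock-out arrays 3 and 5. Efemp1, the matrix protein fibulin-3, was 9.47, 9.999, 8.40, 9.43 and 10.34 on knock-out arrays 1 to 5 and 9.91, 9.56, 9.71, 9.46 and 10.02 on wild-type arrays 1 to 5, with r of -0.95. Kitl, the stem cell factor on which mast cells and melanocytes depend, ran from 3.66 to 5.23 between knock-out arrays 3 and 5. Cpb1 ran from 2.61 to 3.71 and the complement protease gene Masp1 from 5.76 to 6.79. These genes were picked for their r among the 5069 genes, so the values are descriptions of these 10 arrays.

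**Figure D5:**
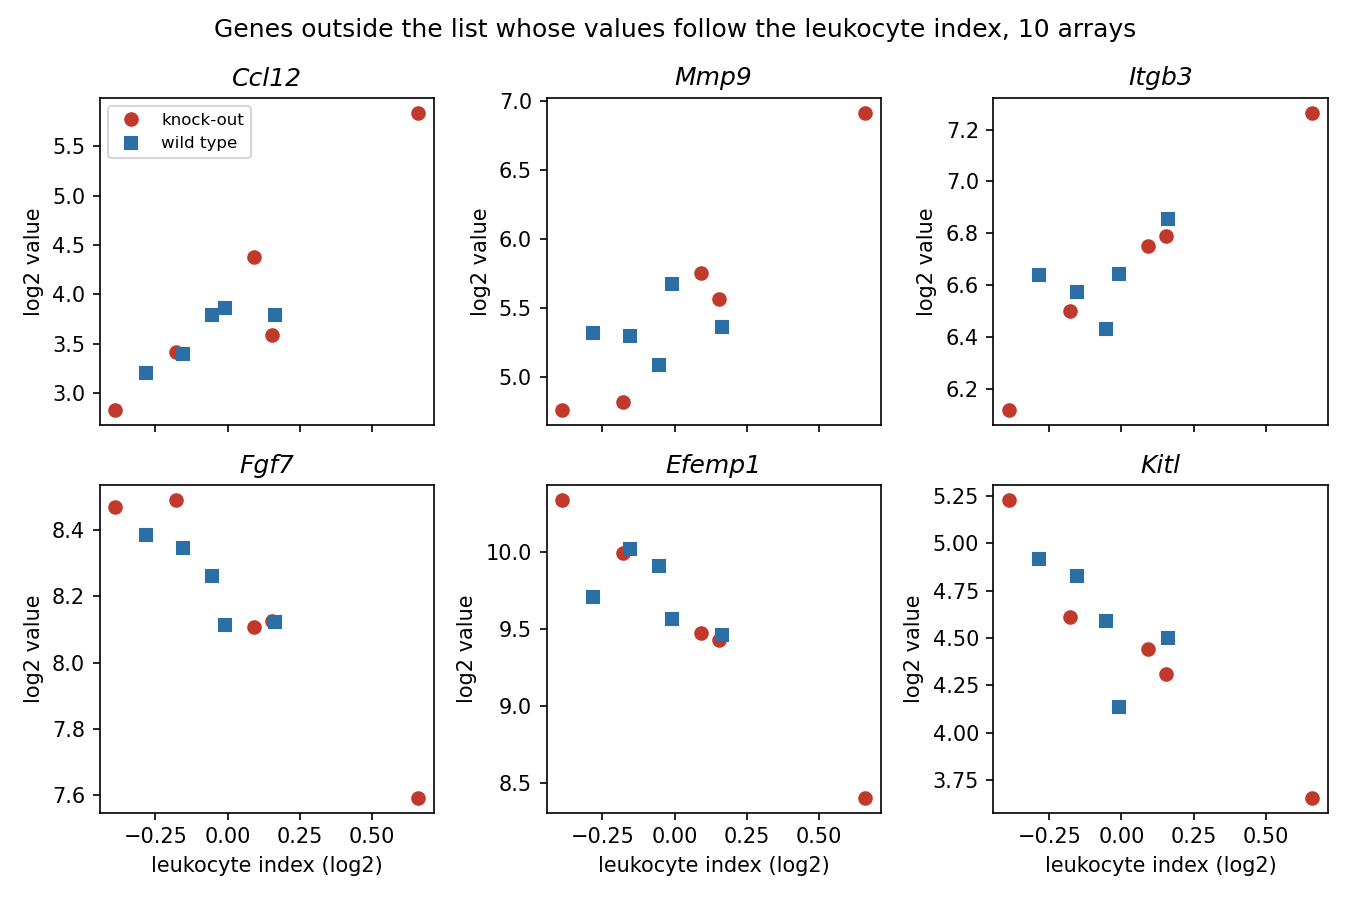
Log2 values (vertical axes) of 6 genes outside the marker list against the leukocyte index (horizontal axes), 1 point per array, with knock-out arrays as red circles and wild-type arrays as blue squares. Ccl12, Mmp9 and Itgb3 rise and Fgf7, Efemp1 and Kitl fall along the index, with knock-out array 3 at the right end of each panel.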

How the data were processed

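Total RNA of 10 cultures, 5 labelled Zbtb4 knock-out and 5 wild type, was measured on 1-colour Affymetrix arrays, per the labels. The deposited table holds 41345 probe sets on a log2 scale, as judged from the range of the values; the sources used here do not give the probe summary, background correction or normalization that the authors ran. If arrays were equalised, a change in total RNA would not show. Through the platform annotation 23521 probe sets had 1 symbol and were used, 1814 with several and 16010 with none were left out, and the probe set with the highest mean stood for each of 22180 genes.

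Knock-out and wild type were compared on the deposited values with lmFit and eBayes in limma 3.58.1 (R 4.3.3), with genotype as the only term and Benjamini-Hochberg adjustment over all genes at 0.05, and by exact two-sided permutation over the 252 splits of the arrays. Differences are knock-out minus wild type. The index, its correlations and the gene lists are descriptions without a test. All 34 members are named; per-array values are given for the most variable member of each role and for Lyz2, Csf1r, Ptprc, Adgre1 and Spi1, and genes named from the other lists are among the 3 most variable of their list. Members and lists were chosen with earlier results of these data known. Same-numbered arrays of the 2 genotypes did not pair over all genes: their deviations from the group means had r from -0.045 to 0.17. Over the 34 members this r ran from -0.40 to 0.59, and 1 knock-out array had its highest r with the wild-type array of its own number. Start-region sequences are RefSeq's on GRCm38.p6. Alternatives were quantile normalization, array median centring, leaving out the dimmest 40% of genes, mean probe sets, a variance trend, array weights, a replicate block, Y-linked level or index as a covariate, and leaving out arrays.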

Additional observations from a re-analysis of the deposited data

Results flagged for a closer look

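In 2 of the 70 groups of 5 arrays examined (34 genes and the index in each genotype), 1 array stood apart from the other 4 of its genotype by more than Dixon's 95% limit, which chance alone exceeds in about 1 of 20 groups. Trem2 was at 3.70 on knock-out array 2, below the next knock-out array at 4.25. Coro1a was at 5.67 on knock-out array 3, above the next at 4.98.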

How the results depend on the processing

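No member passed as reported or under any alternative, including with single arrays left out. Over all genes the count was 0 except without wild-type array 5, where 1 gene passed, so leaving out single arrays gave 0 to 1; with the leukocyte index as a covariate it was 0 too. With single arrays left out, the members with a higher mean numbered 16 to 31, and the median difference ran from -0.017 to 0.27; the lowest values came without knock-out array 3. Without both knock-out arrays 3 and 5, chosen after the data were seen, 24 of 34 were higher. A fit with the replicate number as a block called 0 genes and 0 members, with 29 higher. The arrays' deviations over all genes did not bear out that pairing. The lead of knock-out array 3 over the next array, 0.50 in the index, was 0.47 to 0.58 under other scalings and summaries of the members, and 0.19 with other myeloid genes in their place. In 3 alternatives added after the data were seen (quantile normalization, median centring, mean probe sets), 26 of 34 members again had their highest value on that array.

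Signs of small differences turned. Cd14 came to -0.0028 with median centring, -0.034 with array weights and -0.0079 without knock-out arrays 3 and 5; Fcer1g came to -0.030 with array weights. Without those 2 arrays Trem2 came to -0.042, C1qa to -0.027, Mpeg1 to -0.031 and Spi1 to -0.054. With single arrays left out, 18 members kept their sign and 16 did not. The ranges of those 16 were -0.31 to 0.38 for Fcer1g, -0.17 to 0.49 for Tyrobp, -0.0087 to 0.18 for Trem2, -0.064 to 0.40 for Lilrb4a, -0.032 to 0.23 for C1qa, -0.21 to 0.35 for C1qb, -0.11 to 0.22 for C1qc, -0.14 to 0.15 for Cd14, -0.14 to 0.076 for Ly86, -0.0093 to 0.23 for Itgb2, -0.12 to 0.28 for Cd52, -0.049 to 0.65 for Lyz2, -0.12 to 0.41 for Ctss, -0.067 to 0.30 for Mpeg1, -0.096 to 0.0034 for Cybb and -0.088 to 0.17 for Spi1. Signal over background is not known, so dim members cannot be told from background.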
